A study of Oryza sativa with 6 samples.

Results

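Cellulose synthases and their relatives, the cellulose synthase-like proteins, were followed as a family in the shoot tips of rice seedlings. Members were taken by name alone: every rice gene whose symbol or synonym is CESA with a number, or CSLA, CSLC, CSLD, CSLE, CSLF or CSLH with a number, with or without the prefix Os. This gave 35 genes, of which 29 had a probe set of their own on the array, out of 17905 genes with such a probe set. The 6 that could not be measured were CSLA3, CSLA4, CSLE6, CSLF3, CSLF4 and CSLF9. For the 6 genes with more than 1 probe set, the brightest on average over the 6 arrays was used.

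*Osrdr1* was compared with its sibling WT, with 3 arrays per genotype. *Osrdr1* is homozygous for the retrotransposon *Tos17* in the second exon of *OsRDR1*, which encodes an RNA-dependent RNA polymerase. Mutant and WT plants segregated from 1 heterozygous insertion line of the cultivar Hitomebore during repeated selfing, so the contrast rests on a single insertion event, and other differences between the descendants cannot be told apart from it. Both genotypes were treated alike: seeds were soaked in darkness (2 days, 28 °C), after which the seedlings grew under glass at 26 °C for about 48 h, on a cycle of 16 h light and 8 h dark, with no further treatment. Shoot-tip RNA (6 µg of total RNA per sample, labelled with biotin) was hybridized to Affymetrix Rice Genome Arrays. No probe set could be assigned to *OsRDR1*, and the genotype labels therefore remain unchecked by the arrays. Signals are log2 values, in which a difference of 1 is a doubling. Because probe sets bind unequally, levels are compared between arrays and not between genes.

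The array medians lay between 4.87 and 4.96. Replicate arrays correlated at 0.9959 to 0.9976 in *Osrdr1* and at 0.9908 to 0.9961 in WT, against 0.9903 to 0.9950 between genotypes. WT replicates 2 and 3 stood further from their group than the other arrays, with 296 and 477 probe sets more than 2-fold from the other WT arrays, against 23 to 86 on the others. No CESA or CSL gene was among those probe sets on any array. The largest such deviation of a member was 0.54, on WT replicate 2.

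Cellulose is made at the plasma membrane by rosette-shaped complexes of CESA proteins, which draw UDP-glucose and extrude glucan chains that crystallize into microfibrils. Different CESA proteins serve the thin primary wall of growing cells and the thick secondary wall laid down later in vessels, fibres and other supporting cells; in rice, loss of CESA4, CESA7 or CESA9 gives brittle culms. CSL proteins share the catalytic fold and make matrix polysaccharides. CSLA enzymes make mannans and CSLC enzymes the glucan backbone of xyloglucan, both known best from *Arabidopsis*, while CSLD proteins act in tip-growing and dividing cells. CSLF and CSLH, the grass-specific classes, include enzymes that make the mixed-linkage glucan of cereal walls.

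The secondary wall CESA genes gave higher signals in *Osrdr1* than in WT. CESA9 was the only member of the whole family that passed the test, and it rose 1.63-fold. CESA4 and CESA7 had log2 fold changes of similar size, 0.72 and 0.63, that missed the threshold. For each of the 3 genes, every *Osrdr1* array lay above every WT array. That also held for 19.4% of all genes, and for CESA1, CESA3 and CESA8 of the primary wall. At the same time the primary wall CESA genes differed by no more than 0.21 on the log2 scale.

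CESA9 (LOC4347093, chromosome 9) had log2 signals of 9.39, 8.92 and 9.21 on *Osrdr1* replicates 1 to 3, and of 8.45, 8.59 and 8.37 on WT replicates 1 to 3. The groups did not overlap, and the lowest *Osrdr1* array and the highest WT array were both replicate 2. The log2 fold change of CESA9 was 0.70 (standard error 0.13, 95% confidence interval 0.40 to 1.01), with an adjusted p of 0.0450 from limma, after Benjamini-Hochberg adjustment over 57258 probe sets, with a threshold of 0.05. The call sat close to that threshold. Without any 1 of the 6 arrays, the log2 fold change of CESA9 ran from 0.60 to 0.83 and its adjusted p from 0.0572 to 0.187, so the call was lost each time while the direction was kept.

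CESA4 (LOC4324625, chromosome 1) had signals of 10.16, 9.65 and 10.13 in *Osrdr1* and 9.22, 9.42 and 9.14 in WT. Again the mutant arrays all exceeded those of WT, with replicate 2 lowest in *Osrdr1* and highest in WT. The log2 fold change was 0.72 (standard error 0.15, 95% confidence interval 0.36 to 1.08, adjusted p = 0.0661 from limma). A dimmer probe set of CESA4 read 9.71, 9.38 and 9.50 in *Osrdr1* against 8.89, 8.90 and 9.08 in WT. Taken alone, that probe set had a log2 fold change of 0.57 and an adjusted p of 0.0478 from limma, on the other side of the threshold from the brighter one.

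CESA7 (LOC4348853, chromosome 10) had signals of 10.70, 10.17 and 10.35 in *Osrdr1* and 9.69, 9.92 and 9.71 in WT. The groups were separate here too, again with replicate 2 nearest to the other genotype on both sides. Its log2 fold change was 0.63 (standard error 0.14, 95% confidence interval 0.30 to 0.97, adjusted p = 0.0767 from limma).

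The 3 secondary wall genes, which lie on 3 different chromosomes, shared much of their order over the arrays. In all 3, *Osrdr1* replicate 1 was the highest mutant array, *Osrdr1* replicate 2 the lowest mutant array and WT replicate 2 the highest WT array. Among all 29 members these held for 7, 17 and 7 genes. The difference between CESA4 and CESA9 on the same array had a mean of 0.81 ± 0.10 (SD, n = 3) in *Osrdr1* and 0.79 ± 0.04 (SD, n = 3) in WT, and the genotypes overlapped. Likewise the difference between CESA7 and CESA9 was 1.24 ± 0.09 (SD, n = 3) in *Osrdr1* and 1.31 ± 0.06 (SD, n = 3) in WT, with overlap. The spread among replicates was wider in the mutant for each gene, with SDs of 0.24 to 0.29 in *Osrdr1* against 0.11 to 0.14 in WT.

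**Figure D1:**
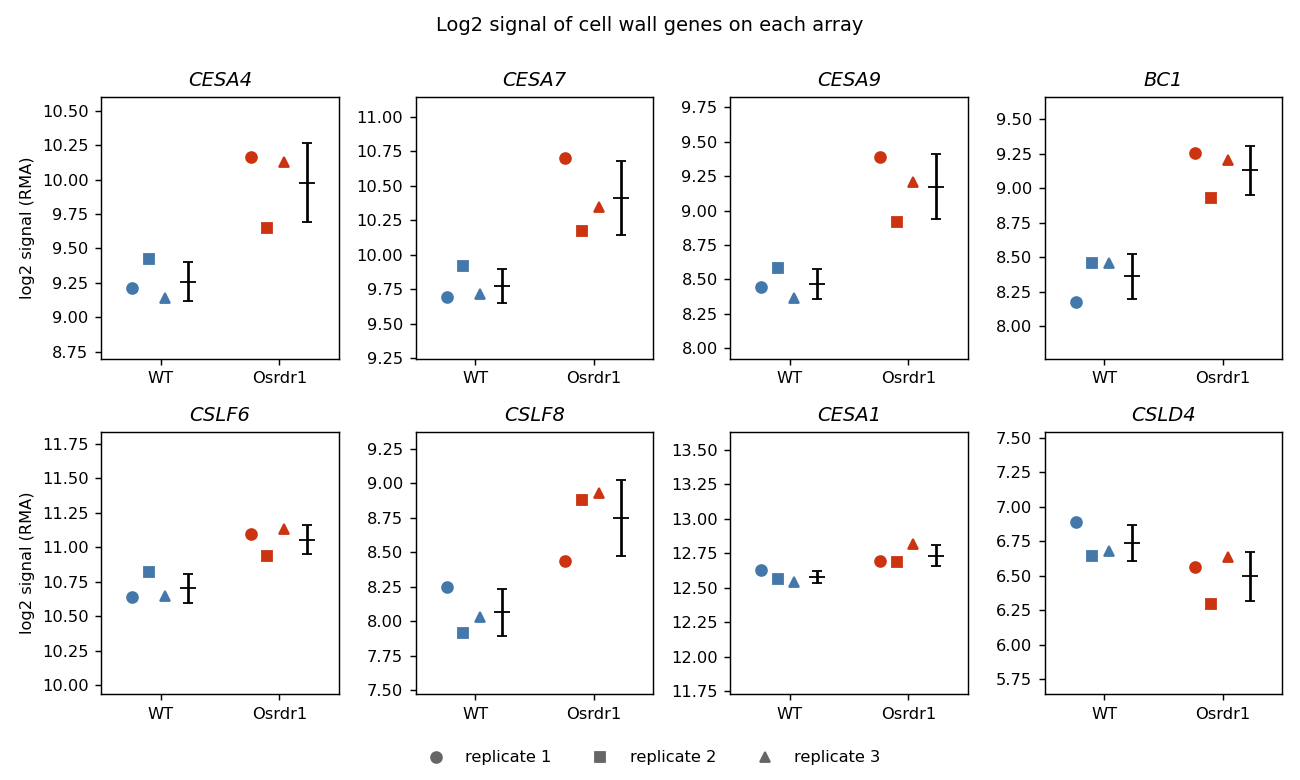
Log2 signal (RMA) of 8 cell wall genes on each of the 6 arrays, by genotype. Points are single arrays, with their shape giving the replicate number, and the bar beside them is the mean ± SD (n = 3). Panels have the same height in log2 units but different offsets. In CESA4, CESA7, CESA9, BC1, CSLF6, CSLF8 and, by a small margin, CESA1 the *Osrdr1* points all lie above the WT points, and in CSLD4 all lie below them.

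The 6 primary wall CESA genes showed little difference between genotypes, and none passed the test. Their log2 fold changes ran from -0.01 to 0.21 with a median of 0.16, and 5 of the 6 were above 0. CESA1 (LOC4337958, chromosome 5), the brightest of them and a subunit of the primary wall complex, had signals of 12.69, 12.69 and 12.82 in *Osrdr1* and 12.63, 12.57 and 12.54 in WT. These values did not overlap, but they were only 0.15 apart (standard error 0.08, 95% confidence interval -0.02 to 0.33, adjusted p = 0.438 from limma). The interval of CESA1 includes 0, ends below the start of those of CESA4 and CESA9, and overlaps that of CESA7.

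CESA8 had the largest difference of the primary wall genes, 0.21 (95% confidence interval 0.02 to 0.41, adjusted p = 0.296 from limma). CESA3 also gave 0.21, with separate groups, and CESA6 gave 0.16 with overlap. CESA5 differed by 0.07 (95% confidence interval -0.11 to 0.25). The intervals of CESA3 and CESA6 were -0.01 to 0.44 and -0.05 to 0.38. Each of these intervals ends below the log2 fold changes fitted for the secondary wall genes. Those of CESA3 and CESA8 nonetheless overlap the interval of each secondary wall gene, and that of CESA6 overlaps those of CESA4 and CESA7. CESA2 had a mean of 4.32, below the array medians, where a signal cannot be told from background, and its difference was -0.01 (95% confidence interval -0.19 to 0.17).

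The highest arrays of the primary wall genes were mostly others than those of the secondary wall genes. *Osrdr1* replicate 3 was the highest mutant array for all 6, and WT replicate 1 the highest WT array for 5. Each also held for 18 of all 29 members, so neither was particular to the primary wall genes. For CESA2 the highest WT array was WT replicate 2, as in the secondary wall genes. The lowest arrays were partly shared. WT replicate 3 was the lowest WT array for 5 of the 6 primary and 2 of the 3 secondary wall genes. Set against CESA1 on the same array, CESA9 lay at -3.31, -3.77 and -3.61 in *Osrdr1* and at -4.18, -3.98 and -4.18 in WT. The groups were separate and differed by 0.55, a description of the called gene beside the brightest primary wall gene, with no test. The mean of CESA4, CESA7 and CESA9 minus that of CESA1, CESA3, CESA5, CESA6 and CESA8 was likewise higher on every *Osrdr1* array, by 0.52. In RNA from a whole tissue, a change in the number of cells that build secondary walls and a change in the RNA of each such cell cannot be told apart.

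Read over the family, the counts were as follows. At the adjusted threshold 1 of the 29 members was called higher and 0 lower, beside 3.44% and 1.13% of all 17905 genes. With no adjustment, 6 members were higher at p under 0.05 (CESA4, CESA7, CESA8, CESA9, CSLF6 and CSLF8) and 3 lower (CSLA9, CSLD2 and CSLE2), where 16.4% and 11.3% of all genes were. The groups did not overlap in 8 members that were higher and 4 that were lower in *Osrdr1*, beside 19.4% and 15.2% of all genes. When only the 1 chosen probe set of each gene was fitted and adjusted for, 5 members were called higher (CESA4, CESA7, CESA9, CSLF6 and CSLF8) and 0 lower, beside 7.93% and 3.62%. The median log2 fold change of the members was -0.01, against 0.00 for all genes. As a whole, then, the family stood near the middle of all genes, and its larger differences lay in the secondary wall CESA genes and in CSLF6 and CSLF8. Between 1.98% and 2.94% of all genes had a larger log2 fold change than CESA4, CESA9 or CESA7.

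**Figure D2:**
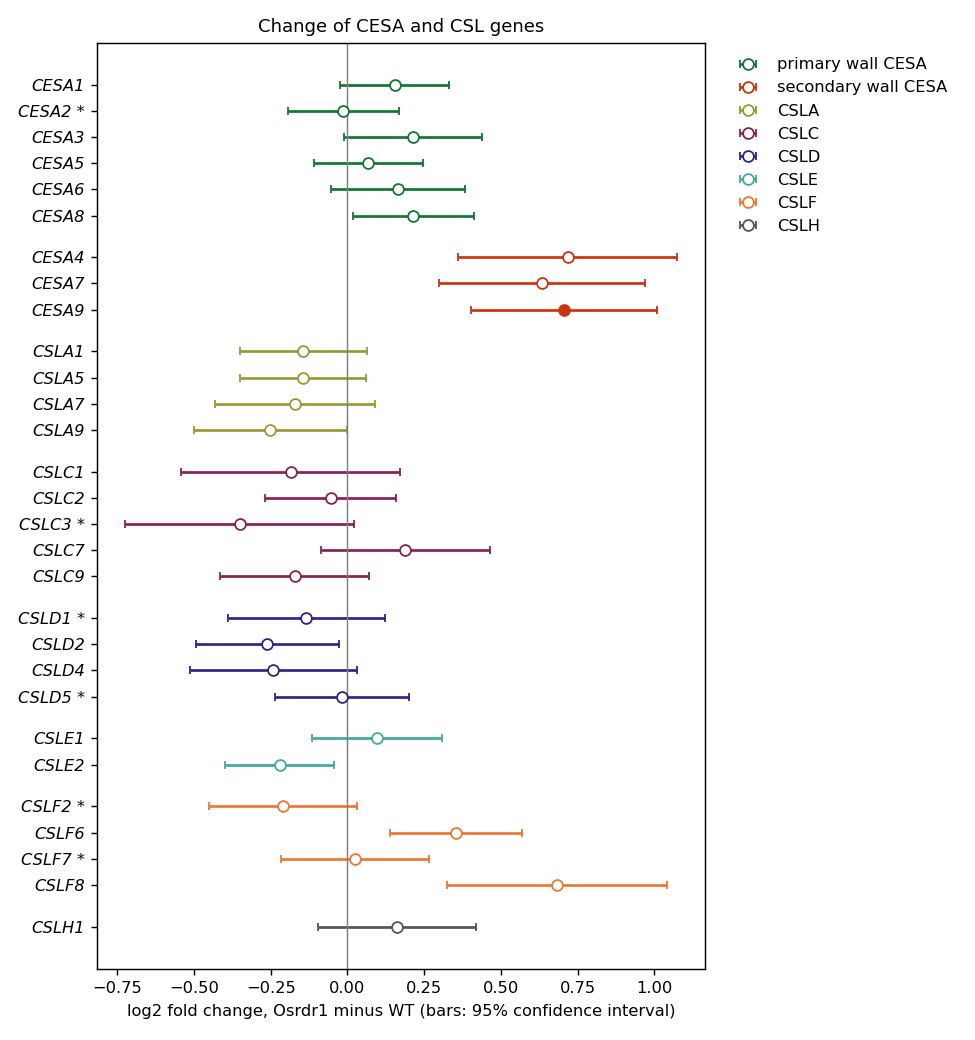
Log2 fold change (*Osrdr1* minus WT, points) of the 29 measured CESA and CSL genes with its 95% confidence interval (bars), grouped by class. The filled point, CESA9, is the 1 member called at an adjusted p under 0.05 from limma, and an asterisk marks the 6 genes below the array medians. The intervals of CESA4, CESA7, CESA9, CSLF6 and CSLF8 start above 0.1, and those of most other members include 0.

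Among the CSLF genes, CSLF8 and CSLF6 gave higher signals in *Osrdr1* without passing the test. CSLF8 (LOC4343552, chromosome 7) had signals of 8.43, 8.88 and 8.93 in *Osrdr1* and 8.25, 7.92 and 8.03 in WT. The mutant arrays were all above WT, with *Osrdr1* replicate 1 and WT replicate 1 nearest to each other. The log2 fold change of CSLF8 was 0.68 (standard error 0.15, 95% confidence interval 0.33 to 1.04, adjusted p = 0.0752 from limma).

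CSLF6 (LOC4344719, chromosome 8), the main mixed-linkage glucan synthase of rice, had signals of 11.10, 10.93 and 11.13 in *Osrdr1* and 10.64, 10.82 and 10.64 in WT. There was no overlap, and replicate 2 was lowest in *Osrdr1* and highest in WT. The same held in the secondary wall CESA genes, but also in CSLC3 and CSLD1, which differed the other way. The log2 fold change of CSLF6 was 0.35 (standard error 0.09, 95% confidence interval 0.14 to 0.57, adjusted p = 0.114 from limma). The other 2 probe sets of CSLF6 were dim, with means of 4.10 and 3.60, and differed by 0.01 and -0.06. On the same array, CSLF8 minus CSLF6 was -2.31 ± 0.32 (SD, n = 3) in *Osrdr1* and -2.64 ± 0.26 (SD, n = 3) in WT, with overlap.

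CSLF8 belongs to a cluster on chromosome 7 in the order CSLF9, CSLF8, CSLF2, CSLF4 and CSLF3, with 0 to 2 other genes between neighbours in the ASM3414082v1 assembly. Only CSLF8 and CSLF2 of this cluster were measured. CSLF2, with a mean of 4.45 and so below the array medians, had a log2 fold change of -0.21 with overlapping groups (95% confidence interval -0.45 to 0.03). CSLF7, on chromosome 10, was also below the array medians at 3.49 and differed by 0.03.

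CSLH1 (LOC4348359, chromosome 10), the only measured member of the class whose product was shown in barley to make mixed-linkage glucan, had signals of 9.46, 9.64 and 9.62 in *Osrdr1* and 9.41, 9.23 and 9.59 in WT. WT replicate 3 fell among the mutant arrays. The difference of 0.16 was within the spread of the replicates (95% confidence interval -0.09 to 0.42, adjusted p = 0.599 from limma).

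In contrast, the CSLA, CSLC and CSLD genes leaned slightly to lower signals in *Osrdr1*. Grouped together after their values were seen, 12 of the 13 measured genes had a log2 fold change below 0, beside 49.0% of all genes, with a median of -0.17 against 0.00 for all genes. CSLC3, CSLD1 and CSLD5, which are among the 12, lay below the array medians, and without such dim genes the count was 9 of 10. With arrays rescaled in either of 2 ways it was 11 of 13, because CSLD5 lies close to 0. None was called. In 3 of them (CSLA9, CSLD2 and CSLD4) all mutant arrays lay below all WT arrays, which also held for 15.2% of all genes. *Osrdr1* replicate 2 was the lowest mutant array in 9 of the 13 genes and WT replicate 1 the highest WT array in 9. Among all 29 members these held for 17 and 18, so neither was particular to this group. All values of this group lay between -0.35 and 0.19.

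The 4 measured CSLA genes, the mannan synthase class, were all below 0. CSLA9 differed by -0.25 (95% confidence interval -0.50 to -0.0016, adjusted p = 0.345 from limma), and by -0.16 without *Osrdr1* replicate 2. CSLA1, CSLA5 and CSLA7 had overlapping groups and log2 fold changes of -0.14, -0.14 and -0.17. Of the 5 CSLC genes, CSLC1, CSLC2 and CSLC9 gave -0.19, -0.05 and -0.17, and CSLC7 gave 0.19, each with overlap. Without WT replicate 1, CSLC1 gave -0.05. CSLC3 had the lowest value of the family, -0.35, but its signals were below the array medians and its highest array was WT replicate 2, at 4.58 (95% confidence interval -0.72 to 0.02, adjusted p = 0.388 from limma). Without that array CSLC3 gave -0.17.

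CSLD4 (LOC107276048, chromosome 12), whose loss gives narrow, rolled leaves in rice, had signals of 6.56, 6.29 and 6.63 in *Osrdr1* and 6.89, 6.65 and 6.68 in WT. The groups were barely separate, with *Osrdr1* replicate 3 just under WT replicate 2. The difference was -0.24 (standard error 0.12, 95% confidence interval -0.51 to 0.03, adjusted p = 0.423 from limma), and it was -0.14 without *Osrdr1* replicate 2. CSLD2 gave -0.26 with separate groups (95% confidence interval -0.49 to -0.03, adjusted p = 0.283 from limma). CSLD1, which rice needs for root hair growth, and CSLD5 were below the array medians, at means of 4.47 and 3.91. They differed by -0.13 and -0.02, both with intervals that include 0. CSLD4 and CSLC7 were read by probe sets of a type (marked x by the manufacturer) that can also bind related transcripts, so their signals may include those of close relatives.

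The 2 measured CSLE genes, whose product is not established, went opposite ways. CSLE2 differed by -0.22 with separate groups (95% confidence interval -0.40 to -0.05, adjusted p = 0.222 from limma), and its other 2 probe sets gave -0.13 and -0.14. CSLE1 differed by 0.10 with overlapping groups. Of all 29 members, 23 had means between 6.57 and 12.66, while CESA2, CSLC3, CSLD1, CSLD5, CSLF2 and CSLF7 lay between 3.49 and 4.47, below the array medians.

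**Figure D3:**
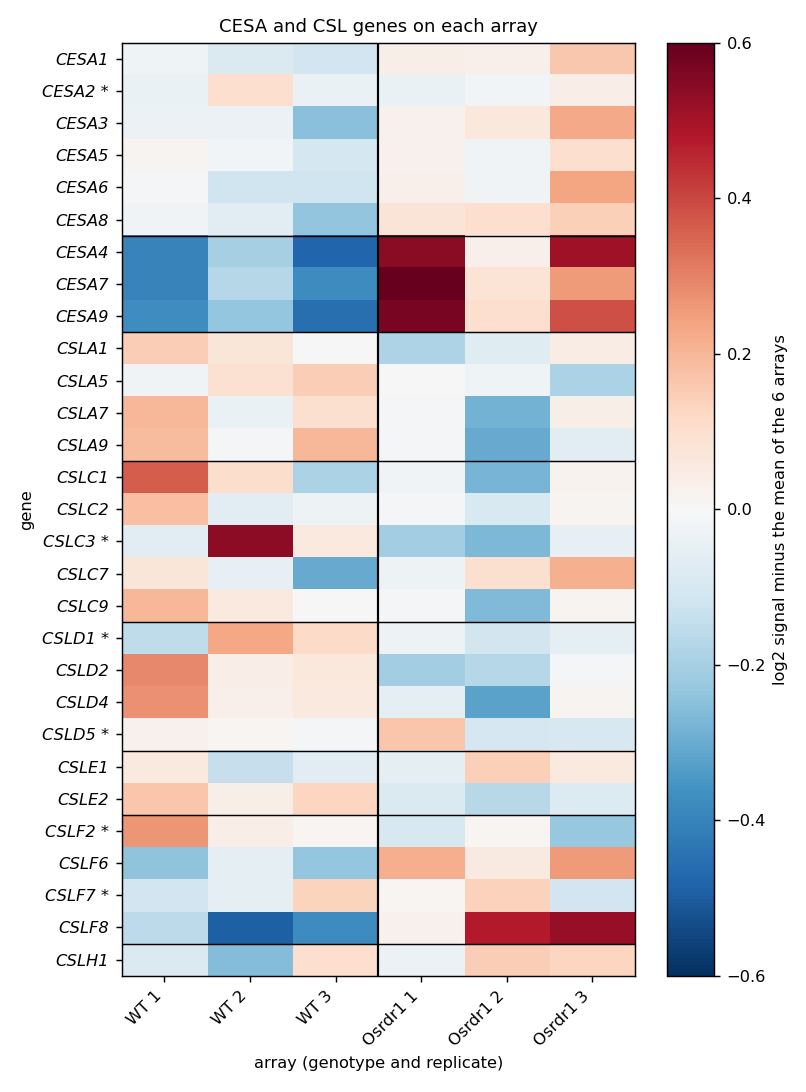
Log2 signal of each of the 29 genes (rows, by class) on each array (columns) after subtracting the gene's mean over the 6 arrays; red is above and blue below that mean, on a scale cut at -0.6 and 0.6. An asterisk marks the 6 genes below the array medians. CESA4, CESA7, CESA9 and CSLF8 carry the strongest contrast between the WT and *Osrdr1* columns, and *Osrdr1* replicate 1 is darkest in the secondary wall genes but not in CSLF8.

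Other genes of wall synthesis were read from lists of names. Of 29 measured genes in the 4 lists, 2 were called higher and 0 lower, beside 3.44% and 1.13% of all genes. Both called genes encode COBRA-like proteins, a family of anchored cell surface proteins that take part in cellulose assembly. BC1, whose loss gives brittle culms in rice as the loss of secondary wall CESA genes does, had signals of 9.26, 8.93 and 9.21 in *Osrdr1* and 8.17, 8.46 and 8.45 in WT. The mutant arrays were all above WT by a margin wider than the spread within either group. Replicate 1 was the highest and replicate 2 the lowest in *Osrdr1*, as in CESA9 but also in CSLA9, CSLD1 and CSLD5, which did not rise. BC1 rose by 0.77 on the log2 scale (standard error of 0.12, 95% confidence interval 0.48 to 1.06, adjusted p = 0.0321 from limma). Its call was kept without WT replicate 3 and lost without any other array, with the log2 fold change between 0.67 and 0.87 and the adjusted p between 0.0469 and 0.155.

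BC1L9 had signals of 8.73, 9.03 and 8.97 in *Osrdr1* and 8.45, 8.41 and 8.37 in WT. All mutant arrays were higher, and here *Osrdr1* replicate 1 was the lowest of them. BC1L9 rose by 0.50, with a standard error of 0.10 and an adjusted p of 0.04997 from limma, just under the threshold, and without any 1 array its adjusted p was 0.0822 to 0.198. BC1L2, the neighbour of BC1 on chromosome 3, whose annotated span overlaps that of BC1, differed in the other direction, by -0.44 (95% confidence interval -0.66 to -0.22, adjusted p = 0.0657 from limma). The endoglucanases GLU1 and GLU2 gave -0.24 and 0.21, and BC1L6, below the array medians, gave 0.17. The 6 measured partners of cellulose synthesis thus held 4 positive and 2 negative differences, with a median of 0.19.

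Sucrose synthases supply UDP-glucose, the substrate of cellulose synthases. Of the 6 measured, none was called, and the median log2 fold change was 0.15. SUS5 had the smallest p, at 7.51, 7.67 and 7.36 in *Osrdr1* and 7.08, 6.90 and 6.97 in WT. Its groups were separate and differed by 0.53 (standard error 0.10, 95% confidence interval 0.29 to 0.77, adjusted p = 0.0516 from limma), and SUS5 passed in 4 of the alternative fits. SUS6 was next, at 7.17, 7.22 and 7.40 in *Osrdr1* and 7.05, 7.17 and 6.66 in WT, a difference of 0.30 with groups that met at 7.17 (adjusted p = 0.404 from limma). SUS1, SUS2, SUS3 and SUS4 gave 0.07, -0.14, -0.08 and 0.23.

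The enzymes of xylan and UDP-sugar synthesis, which build the matrix into which secondary wall cellulose is laid, centred on 0, with a median of -0.01 over 6 genes and 0 calls. IRX9L, a xylan backbone enzyme of the IRX9 family, read 9.74, 9.71 and 9.87 in *Osrdr1* and 9.53, 9.61 and 9.40 in WT. The groups did not overlap and differed by 0.26 (standard error 0.09, adjusted p = 0.225 from limma). The probe sets of IRX9L and UGD5 are of the type marked x, so their signals may include those of close relatives. UGD3, a UDP-glucose dehydrogenase, read 10.79, 10.71 and 10.79 in *Osrdr1* and 10.94, 10.80 and 10.89 in WT, a difference of -0.11 (adjusted p = 0.604 from limma). IRX9 and IRX14 gave -0.10 and 0.12, and UGD4 and UGD5 gave -0.03 and 0.02, each with overlap.

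Tubulins form the microtubules along which CESA complexes travel. They were read by names that start with TUB, since no name that starts with TUA was found. These genes were close to level in the 2 genotypes: 11 genes had a median of -0.03, a range from -0.19 to 0.19 and 0 calls. TUB4 read 12.88, 12.83 and 12.80 in *Osrdr1* and 12.69, 12.63 and 12.62 in WT, a difference of 0.19 with separate groups (adjusted p = 0.264 from limma). TUB2 read 12.76, 12.65 and 12.72 in *Osrdr1* and 12.87, 12.85 and 12.95 in WT, a difference of -0.19 (adjusted p = 0.312 from limma). Both were separate on the arrays yet smaller than any difference of a secondary wall CESA gene. None of the 19 names of secondary wall regulators on the list could be matched to a gene in the tables used.

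**Figure D4:**
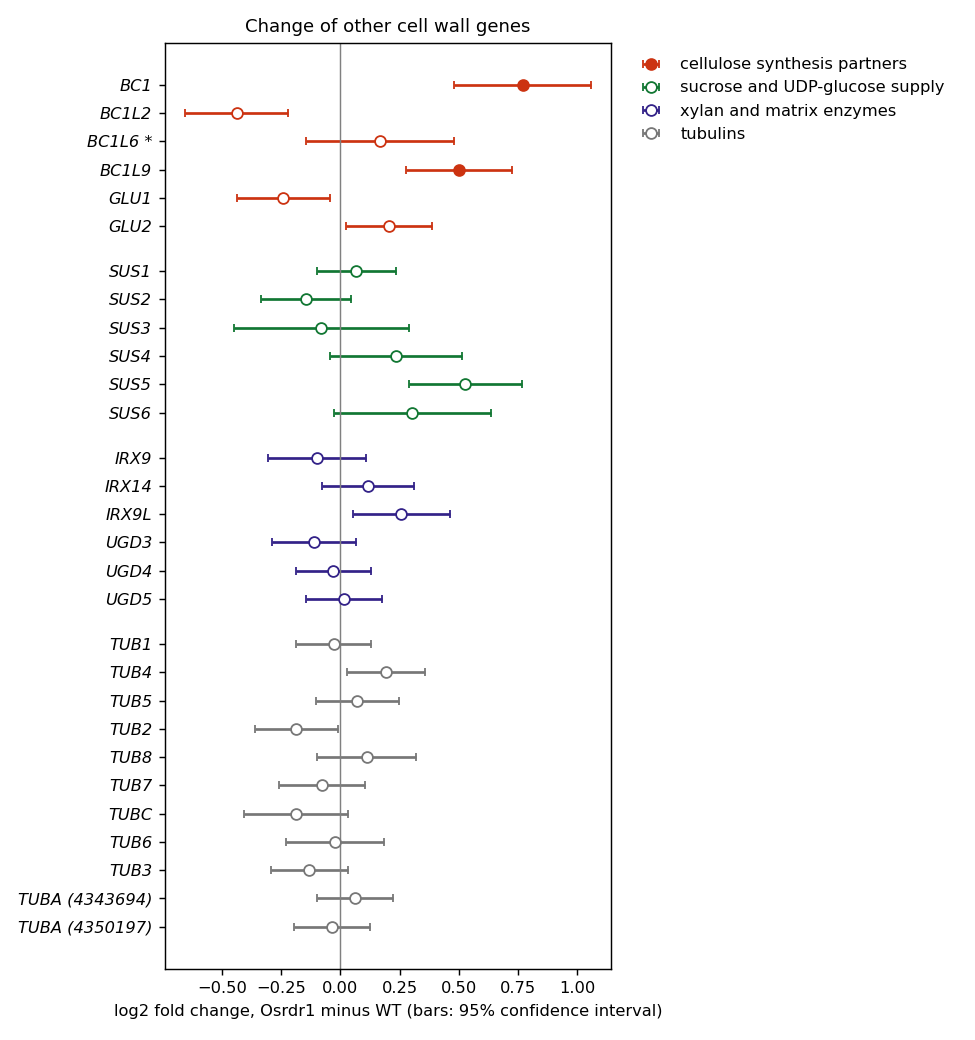
Log2 fold change (*Osrdr1* minus WT, points) and 95% confidence interval (bars) of 29 other cell wall genes in 4 lists. Filled points mark BC1 and BC1L9, called at an adjusted p under 0.05 from limma, and the asterisk marks a gene below the array medians. All xylan and tubulin genes but IRX9L lie within 0.2 of 0.

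Some markers of other cells and states in the shoot tip also differed between genotypes. Over all genes, 3.44% were called higher and 1.13% lower. Of the shoot meristem genes, OSH15 was not measured. OSH71 was called lower, at 4.42 to 5.84 in *Osrdr1* and 6.91 to 8.26 in WT (adjusted p = 0.0457 from limma), and OSH1, at 3.71 to 6.31 and 6.15 to 8.28, did not pass (adjusted p = 0.162 from limma). On *Osrdr1* replicates 2 and 3 both genes lay below the array medians, where a signal cannot be told from background, so no fold is given, although the tissue was labelled shoot tip throughout. The log2 of their summed signal was 5.11 to 7.09 in *Osrdr1* and 7.58 to 9.27 in WT. Of 7 measured leaf primordium genes, YAB3 and YAB4 were called lower, by 1.07 and 0.62 (adjusted p = 0.0168 and 0.0450 from limma). The others were not called: YAB1, YAB2 and DL gave -0.04, -0.05 and -0.30, and YAB5 and YAB7 gave 0.19 and 0.04. The log2 of the summed signal of the list overlapped, at 12.93 to 13.08 in *Osrdr1* and 12.97 to 13.11 in WT. Of 3 leaf mesophyll genes, RBCS and GLO1 were called higher, by 0.52 and 0.61 (adjusted p = 0.0412 and 0.0235 from limma), and CAB2R differed by 0.24. The log2 of the summed signal was 14.97 to 15.00 in *Osrdr1* against 14.48 to 14.69 in WT. The RBCS probe set is of the type marked x, so its signal may include those of close relatives. Of 3 low oxygen genes none was called, and the log2 of their summed signal was 11.92 to 11.99 in *Osrdr1* and 12.08 to 12.58 in WT. Most of that sum came from PDC2, with means of 11.90 in *Osrdr1* and 12.20 in WT (adjusted p = 0.168 from limma). PDC1 stood at 8.55 on WT replicate 2 and at 3.74 to 4.13 elsewhere. ADH2 was also highest on WT replicate 2, at 9.36, and stood at 6.23 to 7.40 elsewhere. ADH1 was not measured. The part of these markers in the differences of the CESA and CSL genes was not tested.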

How the data were processed

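The authors deposited log2 values of 57381 probe sets on 6 arrays, made with RMA (background correction, quantile normalization, probe summary) in Affymetrix Expression Console per the submitters' processing notes; its version is not given in the sources at hand. The 123 control probe sets were left out and the remaining 57258 were tested in R 4.3.3 by limma 3.58.1 (lmFit, eBayes, genotype only; 4 residual and 3.32 prior degrees of freedom). P-values were adjusted by Benjamini-Hochberg and called at under 0.05, with no fold minimum or filter. The paper's text names no test for array calls. Tables used Python 3.11.15 with pandas 2.3.3 and scipy 1.17.1. On simulated data with 200 changed probe sets, the fit recovered 71% of log2 changes of 1 and 95% of log2 changes of 2. Smaller changes, such as those of the members here, were not simulated.

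Of the probe sets tested, 22436 matched 1 gene, 95 several and 34727 none in the array annotation and the rice gene table. The synonym CSLA9 is listed for CSLA1 too. A bHLH gene that shares the synonym BC1 was left out. Members, lists and tests were chosen with earlier results of these data known. Named with every array were CESA4, CESA7, CESA9, called members, the 5 largest absolute changes, the brightest primary wall CESA, CSLF6, CSLD4 and CSLH1, and from the other lists called genes and the 2 of smallest p. Of 23 partner, 13 sucrose, 18 xylan, 2 tubulin, 5 mesophyll and 3 root names, 15, 3, 10, 1, 1 and 3 were not found. Alternatives altered the treatment of dim probe sets, array scaling, variance model, use of replicate numbers, arrays included, features adjusted over, and probe set. The study describes the arrays as biological replicates, and their number limits the precision. Sequences were not analysed here.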

Additional observations from a re-analysis of the deposited data

How the results depend on the processing

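CESA9 was also called with arrays centred on medians, with a second quantile normalization and with a robust variance. Leaving out the dimmer probe sets gave 2 called members (CESA4 and CESA9), and a variance trend or an adjustment over 1 probe set per gene gave 5 each (CESA4, CESA7, CESA9, CSLF6 and CSLF8). These 3 settings called more over the whole table too. They gave 1981 of 28629 probe sets, 2456 of 57258 probe sets and 2067 of 17905 genes, against 1191 of 57258 in the main fit. Median centring, the second quantile normalization and the robust variance called 1221, 1589 and 1106 of 57258. With no adjustment, 9 members passed at p under 0.05 (6 higher, 3 lower), as did 8190 of all 57258 probe sets (limma). In each of the 6 fits without 1 array, 0 were called. For the other cell wall lists, where 2 genes were called, arrays centred on medians gave 3 (SUS5 added), leaving out the dimmer probe sets 4 (SUS5 and, lower, BC1L2 added), a variance trend 5 (SUS5, TUB4 and, lower, TUB2 added), an adjustment over 1 probe set per gene 4 (SUS5 and, lower, BC1L2 added), a second quantile normalization or a robust variance 1 each (BC1), and no adjustment 9 (6 higher, 3 lower); without 1 array, 0 to 1 remained (BC1, without WT replicate 3). Over all probe sets the number called fell from 1191 to 0 without *Osrdr1* replicate 1 or 3 (6345 and 6426 at an unadjusted p under 0.05), to 1 without WT replicate 1 (7358), to 161 and 181 without *Osrdr1* replicate 2 and WT replicate 2, and was 1220 without WT replicate 3.

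The replicate numbers did not pair the samples: same-numbered arrays deviated from their group means with correlations of 0.14, -0.15 and -0.27. With the replicate number as a block, 0 CESA or CSL genes and 0 genes of the other lists were called, and 0 probe sets over the whole table (6862 at an unadjusted p under 0.05, limma); CESA9 had an adjusted p of 0.147.

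With the probe set of each gene kept, 11 of 371 values of members under alternatives changed sign, all in CESA2, CSLC2, CSLD5 and CSLF7, whose differences were at most 0.05 in size. Of 8 values from other probe sets, 2 changed sign, those of CESA2 (0.06) and of the dimmest probe set of CSLF6 (-0.06). With the probe set kept, the log2 fold changes were 0.63 to 0.88 for CESA4, 0.49 to 0.75 for CESA7, 0.31 to 0.41 for CSLF6 and 0.59 to 0.84 for CSLF8. Other probe sets gave 0.57 for CESA4 and 0.01 and -0.06 for CSLF6. Without detection calls, the 6 members below the array medians cannot be told from background.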
